A study of Mus musculus with 12 samples.

Results

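The genes of the respiratory chain and the ATP synthase were followed in mouse pancreatic stellate cells (PSCs) by complex and by the genome that encodes them. They were taken by symbol. The symbols were those of the Nduf, Sdh, Uqcr, Cox4 to Cox8 and Atp5 families, *Cyc1*, and the mitochondrial Nd, Co, Atp and Cytb genes, with pseudogenes left out. Of the 39179 genes in the table, 99 matched. The nuclear genome encodes 86 of them, 37 of complex I, 4 of complex II, 9 of complex III, 18 of complex IV and 18 of complex V. The mitochondrial genome encodes 13, 7 of complex I, 1 of complex III, 3 of complex IV and 2 of complex V. Grouping by symbol places *Ndufa4* in complex I, although its product is now counted among the subunits of complex IV. It likewise places *Atp5sl* in complex V, although its product is now known as an assembly factor of complex I.

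PSCs resemble fibroblasts and store vitamin A in the healthy pancreas. Those used here are labelled C57BL/6, are listed in the supplement as 1 clone immortalised with SV40, and carried mCherry by lentivirus. Over 72 h they were kept alone (mono-PSCs), with EGFP-labelled cells of a mouse pancreatic cancer line (PCCs; 2W-PSCs), or with these PCCs and TagBFP-labelled cells of a mouse macrophage line (MØs; 3W-PSCs), and then sorted for mCherry and against EGFP and TagBFP. Each culture gave 4 libraries, described in the labels as biological replicates, so that p-values measure the spread between cultures of 1 clone and not between isolations of PSCs. The 3W-PSCs and 2W-PSCs differ by the addition of MØs, the 2W-PSCs and mono-PSCs by the addition of PCCs. The total number of cells was the same in each culture, so that an added cell type also meant fewer other cells at the start, and these differences cannot be told apart.

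Libraries were made with a 3′ kit that primes on the poly(A) tail and reads the end of each transcript, and held between 4561817 and 8093368 counts. Levels are given as CPM, counts scaled to a common library size with TMM factors, and differences as log2 fold changes from edgeR, called at an adjusted p under 0.05. All 10 fibroblast markers were counted, with summed levels of 4724 to 9015, 8182 to 8444 and 4986 to 6162 CPM in mono-PSCs, 2W-PSCs and 3W-PSCs. They were called both ways in 3W-PSCs. Of 8 tested against 2W-PSCs *Pdgfra* was called higher and *Col3a1*, *Col1a1*, *Dcn* and *Thy1* lower. Of 9 tested against mono-PSCs *Pdgfra* was called higher and *Col3a1* and *Thy1* lower. In 2W-PSCs against mono-PSCs *Dcn* alone of 8 was called, higher. Of all genes tested, 5.73% were called higher and 4.95% lower in 3W-PSCs against 2W-PSCs. Against mono-PSCs these shares were 13.4% and 13.02% in 3W-PSCs, and 0.839% and 0.152% in 2W-PSCs. Of 12 macrophage markers 11 were counted and *Emr1* was at 0 in all 12 libraries. Their summed level was 9.56 to 10.8, 11.98 to 17.3 and 30.5 to 67.7 CPM in mono-PSCs, 2W-PSCs and 3W-PSCs. Of 12 epithelial markers 11 were counted and *Cldn4* was at 0, and their sums were 0.601 to 2.43, 76.2 to 148 and 56.0 to 96.0 CPM. Against mono-PSCs, 5 epithelial markers were tested in 2W-PSCs (median log2 fold change 6.30) and 7 in 3W-PSCs (median 5.76), all called higher. With mono-PSCs near 0, these markers passed the filter on low counts only through 2W-PSCs or 3W-PSCs. A call could thus only be higher. Of 4 tested macrophage markers *Cd14* was called higher in 3W-PSCs against 2W-PSCs, and *Cd14* and *Csf1r* against mono-PSCs. The sort was set to remove EGFP-labelled PCCs and TagBFP-labelled MØs, and the part of their RNA in the results below was not tested. Replicate 2 of 2W-PSCs stood apart from the other libraries in several nuclear members, as described with the results it touches.

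The respiratory chain passes electrons from NADH (complex I) and succinate (complex II) through coenzyme Q, complex III and cytochrome c to oxygen at complex IV. Complexes I, III and IV pump protons, and complex V, the ATP synthase, uses the gradient to make ATP. All complexes except complex II hold subunits of both genomes. Mitochondrial DNA encodes core subunits that sit in the inner membrane, while the nucleus encodes the remaining catalytic subunits, the accessory subunits and the factors that assemble them. Mitochondrial mRNAs are cut from long transcripts and most carry short poly(A) tails, so that a kit primed on poly(A) can reach these too.

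Not every mitochondrial gene could be read from these counts. *mt-Nd4l*, *mt-Co2*, *mt-Co3*, *mt-Atp8* and *mt-Atp6* were at 0 counts in all 12 libraries, and *mt-Nd3* reached 8 counts in 1 library and 13 in all. The reads were 75 bases long, and in the GENCODE transcripts of GRCm38, the build of the counts, 97.8% to 99.9% of the 75-base windows of *mt-Nd3*, *mt-Nd4l*, *mt-Co2*, *mt-Co3* and *mt-Atp6* also occur in pseudogenes of the nuclear genome. Most of these lie side by side on chromosome 1, such as Gm28661 (chr1:24614885-24615565) for *mt-Co2* and Gm28437 (chr1:24613189-24613971) for *mt-Co3*. *mt-Atp8* has no shared window, and is known to lie on the same mRNA as *mt-Atp6*. The 7 genes with counts were *mt-Nd1*, *mt-Nd2*, *mt-Nd4*, *mt-Nd5*, *mt-Nd6*, *mt-Cytb* and *mt-Co1*. The last 75 bases of 4 genes are shown because a read of this kit falls near them, with capitals for runs of at least 30 bases found in another gene's transcript and small letters for bases outside such runs.
mt-Nd1 (chrM:3633-3707): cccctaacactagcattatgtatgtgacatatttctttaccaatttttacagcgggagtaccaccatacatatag
mt-Nd4 (chrM:11470-11544): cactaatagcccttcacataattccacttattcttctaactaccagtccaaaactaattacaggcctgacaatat
mt-Co1 (chrM:6798-6872): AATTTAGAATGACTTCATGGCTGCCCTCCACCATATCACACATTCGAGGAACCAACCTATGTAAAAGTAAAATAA
mt-Co3 (chrM:9316-9390): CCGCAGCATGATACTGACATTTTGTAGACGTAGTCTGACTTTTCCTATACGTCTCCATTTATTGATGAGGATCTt
The end of *mt-Nd1* is unshared, and so is that of *mt-Nd4*, although 61.5% of all windows of *mt-Nd4* occur in Gm28439. The end of *mt-Co1* is shared over all 75 bases with Gm13340 and Gm29216, as are 95.1% of the windows in its last 500 bases, yet *mt-Co1* was counted, and how reads that match several places were counted was not tested. The end of *mt-Co3* is shared over 74 bases with Gm28437.

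Summed over members, the level of the mitochondrial genes was higher and that of the nuclear genes lower in 3W-PSCs, with no test of the sums. The summed level of the 13 mitochondrial genes was 24178, 23601, 19524 and 21268 CPM in replicates 1 to 4 of 3W-PSCs. In 2W-PSCs it was 17790.4, 10182, 12767 and 10041 CPM, and in mono-PSCs 15613, 18286, 7812 and 8386 CPM. Every 3W library lay above every library of the other cultures. The summed level of the 86 nuclear genes was 11643, 11063, 11882 and 11965 CPM in 3W-PSCs, below 14239, 16227, 19101 and 17512 CPM in 2W-PSCs and below the 13041, 21374, 20301 and 17015 CPM of mono-PSCs. The mitochondrial genes thus gave 1.74 times and the nuclear genes 0.694 times the mean of 2W-PSCs. The mitochondrial sum rests almost wholly on the 7 counted genes. Of its mean of 22143 CPM in 3W-PSCs, *mt-Nd2* gave 8045 and *mt-Nd4* 5129 CPM. For each unit of nuclear level, the 3W libraries held 1.64 to 2.13 units of mitochondrial level, against 0.573 to 1.25 in 2W-PSCs and 0.385 to 1.20 in mono-PSCs. These sums are given without a test, since they add up chosen genes. The mitochondrial ribosomal RNAs *mt-Rnr1* and *mt-Rnr2* were higher on average too, with 5.37% ± 0.577 of counts (SD, n = 4) in 3W-PSCs, 3.83% ± 1.16 in 2W-PSCs and 3.57% ± 1.49 in mono-PSCs, where 1 library of 2W-PSCs and 1 of mono-PSCs lay within the range of 3W-PSCs. Their part in the sums was not tested. In bulk libraries fewer cells with a transcript and less RNA per cell cannot be told apart. Both are shares of one library, of which the mitochondrial mRNA genes took 1.94 to 2.53% and the nuclear members 1.18 to 1.25% of counts in 3W-PSCs, and with library sizes computed without mitochondrial genes and the abundant *Gm26924* the log2 ratios to 2W-PSCs were 0.78 and -0.55, against 0.80 and -0.53 with all genes.

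**Figure D1:**
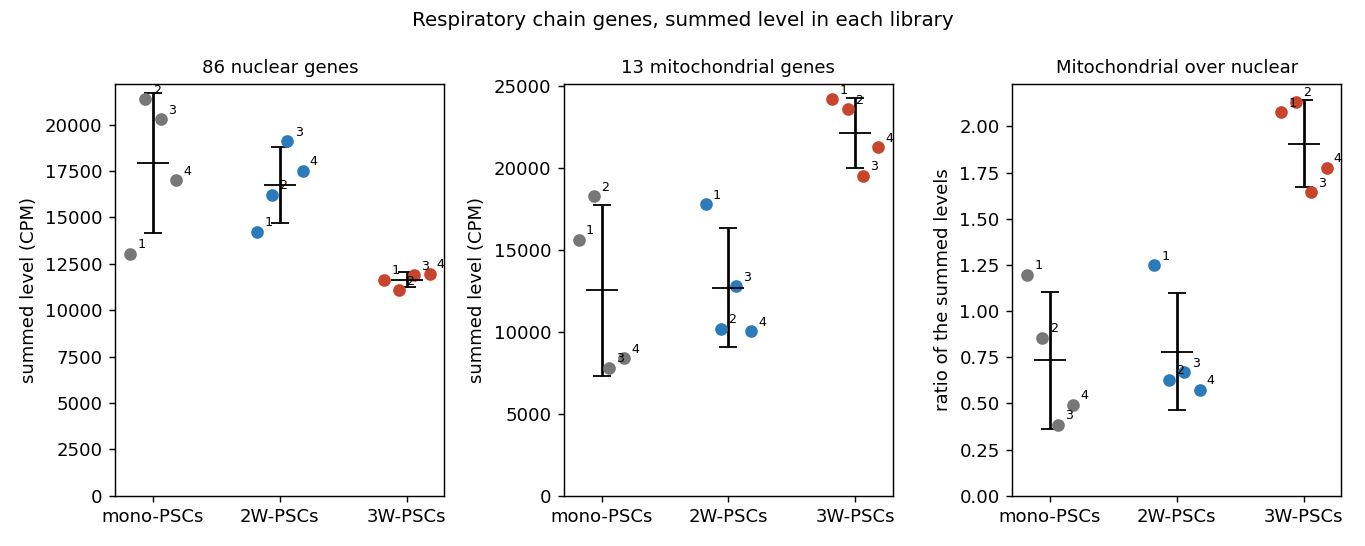
Summed level in CPM of the 86 nuclear genes (left) and the 13 mitochondrial genes (middle) and the ratio of the sums (right) in each library, numbered by replicate, with the mean and SD of 4 libraries per culture. The mitochondrial sum rests almost wholly on the 7 counted genes. The 3W libraries lie below all others for the nuclear sum (11063 to 11965 CPM) and above all others for the mitochondrial sum (19524 to 24178 CPM).

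Within mono-PSCs and 2W-PSCs the sums were uneven. Replicate 1 of both cultures had the lowest nuclear sum of its culture and a ratio of mitochondrial to nuclear level of 1.20 and 1.25, where the other libraries of these cultures lay between 0.385 and 0.856. The nuclear sum was 17933 ± 3752 CPM (mean ± SD, n = 4) in mono-PSCs and 16769.7 ± 2056 CPM in 2W-PSCs, against 11638 ± 407 CPM in 3W-PSCs.

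With MØs added to the culture, genes of the mitochondrial genome were higher. Of the 7 counted genes 2 were called higher and none lower, 6 had an unadjusted p under 0.05, and all 7 had a positive log2 fold change, with a median of 0.76. Over all 11513 genes tested, 10.7% were called in either direction, 5.73% higher, and the median was 0.00. No overlap between the cultures with 3W-PSCs higher was seen for 4 of the 7, and for 11.6% of all genes tested. Both called genes encode subunits of the membrane arm of complex I. *mt-Nd1* (chrM:2751-3707, plus strand) encodes the subunit next to the coenzyme Q site. Its level was 3689.8, 3763, 3394 and 3079.9 CPM in 3W-PSCs, with 2551, 1431, 2156 and 1475 CPM in 2W-PSCs, with no overlap between the cultures (log2 fold change 0.87 ± 0.22 SE, adjusted p = 0.0278). *mt-Nd2* (chrM:3914-4951, plus strand), a proton-pumping subunit, was the most abundant, at 8349, 8151, 7701 and 7979 CPM in 3W-PSCs, with 6452, 4621, 4239.9 and 3597 CPM in 2W-PSCs, again without overlap (0.76 ± 0.20 SE, adjusted p = 0.0374). Both calls rested on the full set of libraries, since *mt-Nd1* kept its call in 3 and *mt-Nd2* in 2 of the 8 fits that left out 1 library.

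The other 5 counted mitochondrial genes did not pass the test against 2W-PSCs. *mt-Cytb*, the catalytic cytochrome b of complex III, had the largest difference and a wide spread, at 4422, 4318, 3346 and 3579 CPM in 3W-PSCs, with 2947, 512, 2484 and 1343 CPM in 2W-PSCs (1.10 ± 0.42 SE, adjusted p = 0.118). Its groups did not overlap, and the lowest value was that of replicate 2 of 2W-PSCs. *mt-Co1*, which holds the oxygen-binding site of complex IV, was at 851, 801, 848 and 828 CPM in 3W-PSCs, with 709, 344, 652 and 425 CPM in 2W-PSCs (0.64 ± 0.23 SE, adjusted p = 0.0968). Groups overlapped for *mt-Nd4* (0.70 ± 0.23 SE, adjusted p = 0.0783), *mt-Nd5* (0.38 ± 0.22 SE, adjusted p = 0.305) and *mt-Nd6* (0.91 ± 0.32 SE, adjusted p = 0.0942). *mt-Nd6*, which alone is encoded on the opposite strand, had low levels, at 4.33 to 28.3 CPM over the 12 libraries. How well the kit reaches it was not tested.

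**Figure D2:**
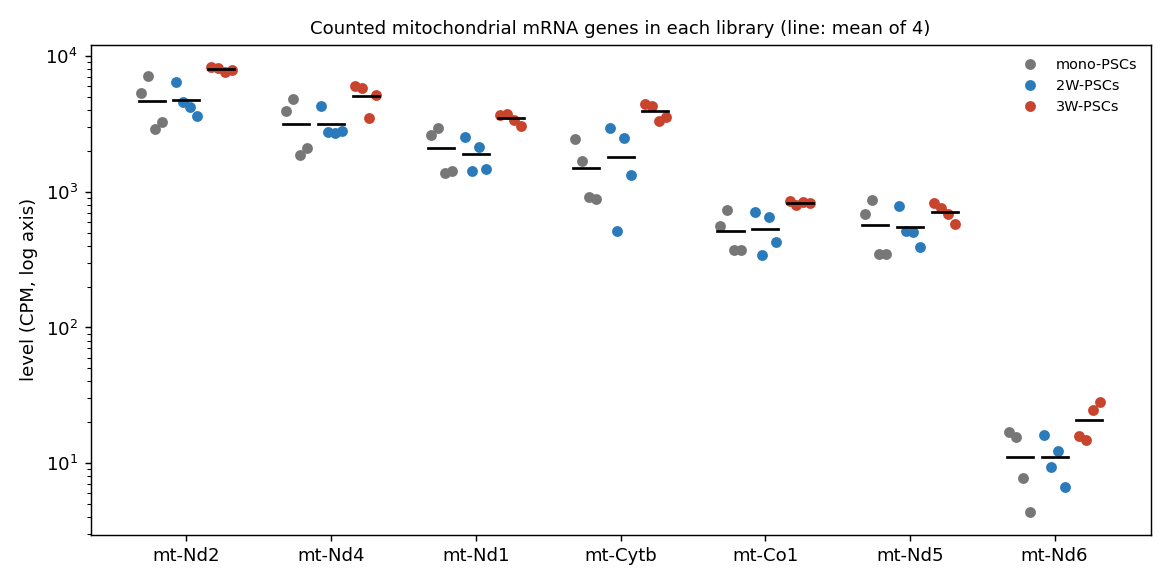
Level in CPM on a log axis of the 7 counted mitochondrial mRNA genes, with 1 point per library and a line at the mean of 4. For *mt-Nd1*, *mt-Nd2*, *mt-Co1* and *mt-Cytb* all 4 libraries of 3W-PSCs lie above those of 2W-PSCs and mono-PSCs.

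The same direction held against mono-PSCs, where 4 of the 7 genes were called higher (13.4% of 11551 genes) and the same 4 did not overlap with 3W-PSCs higher (13.9% of genes). *mt-Cytb* rose from 2459, 1699.5, 922 and 879 CPM in mono-PSCs (1.39 ± 0.27 SE, adjusted p = 0.00106), and was called in all 17 alternative fits. *mt-Nd2* was at 5366, 7169, 2919 and 3248 CPM in mono-PSCs (0.78 ± 0.24 SE, adjusted p = 0.0230) and *mt-Nd1* at 2607, 2948, 1377 and 1430.1 CPM (0.73 ± 0.23 SE, adjusted p = 0.0243). *mt-Co1* was at 556, 741, 375 and 375 CPM (0.70 ± 0.20 SE, adjusted p = 0.0143). In the 8 fits that left out 1 library, *mt-Nd1* kept its call in 4, *mt-Nd2* in 3 and *mt-Co1* in 6. The fit with all 12 libraries called *mt-Cytb* alone.

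Nuclear genes of the chain were lower with MØs added to the culture. Of the 86 nuclear members 79 passed the filter on low counts, and of these 27 were called lower and none higher, with a median log2 fold change of -0.43. Of all genes tested 4.95% were called lower. No overlap between cultures with 3W-PSCs lower was seen for 32 of the 79, against 9.72% of all genes tested. By complex, 16 of 36 tested members of complex I were called lower, 1 of 4 of complex II, 3 of 9 of complex III, 3 of 13 of complex IV and 4 of 17 of complex V. The 7 members not tested were *Ndufa4l2*, *Cox4i2*, *Cox7a1*, *Cox7b2*, *Cox8b*, *Cox8c* and *Atp5l2*. Unadjusted p-values under 0.05 were reached by 40 lower members and by 1 higher member, *Sdhd*, and DESeq2 likewise called 0 nuclear members higher. Past a log2 fold change of 1 in size, 6 of the calls remained, all lower, where 2.02% of all genes tested were called lower and 3.82% higher under that rule. Where values are set against each other without naming the cultures, the libraries of 3W-PSCs come first and those of 2W-PSCs second, each in the order of replicates 1 to 4.

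**Figure D3:**
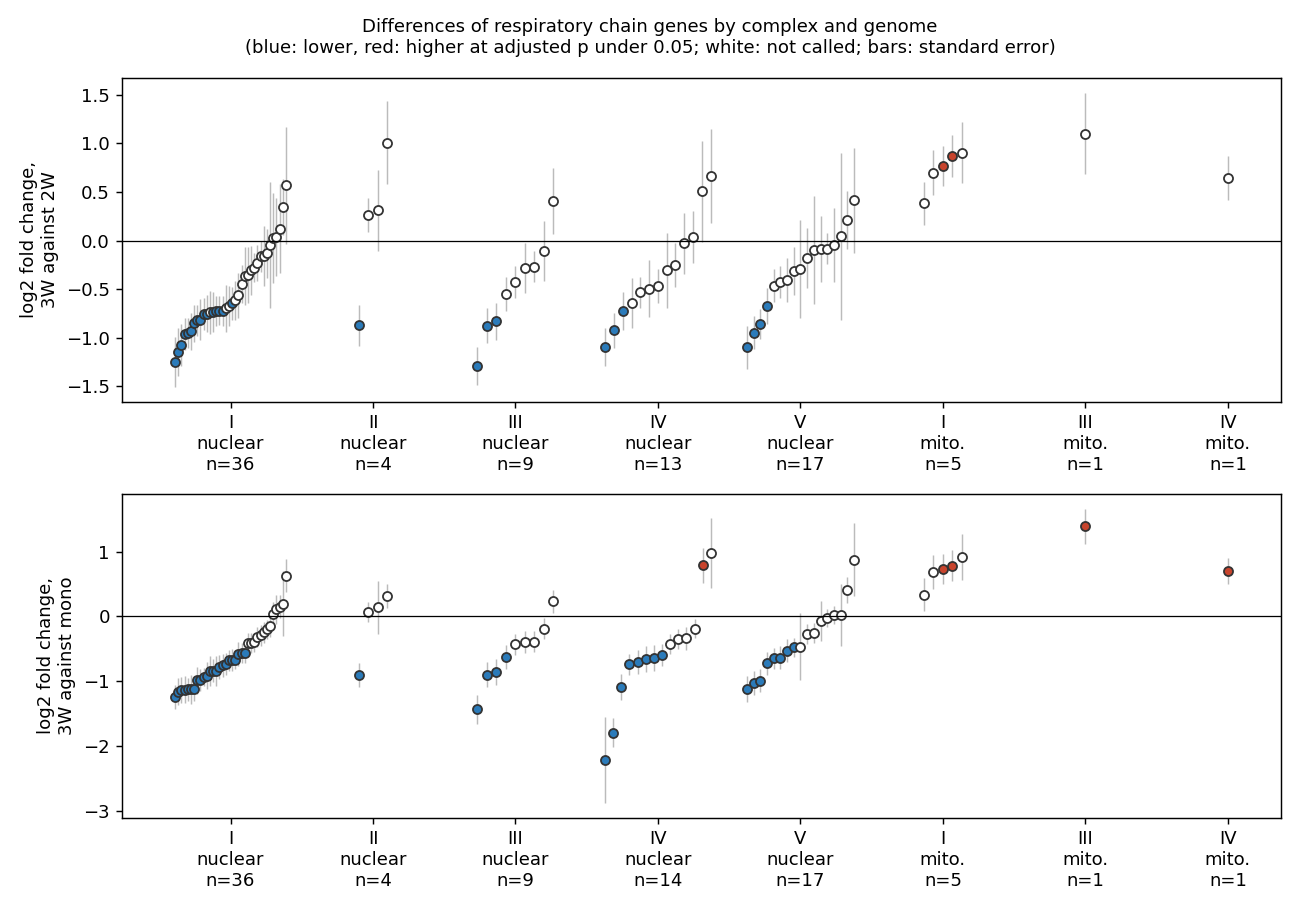
Log2 fold changes with standard errors for the members tested, by complex and genome, for 3W-PSCs against 2W-PSCs (top) and against mono-PSCs (bottom), with n the number tested, blue for members called lower, red for members called higher and white for members not called. Called nuclear members lie below 0 in every complex, except *Cox7c* against mono-PSCs, and all 7 tested mitochondrial members lie above 0.

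In complex I, which oxidises NADH, both core and accessory subunits were called lower. Of 29 tested accessory genes 14 were called lower (median -0.69). Of the 7 genes of the nuclear core, which carry flavin and iron-sulphur clusters, 2 were called lower (median -0.30). The share over all genes tested was 4.95%. This split into core and accessory subunits was made after the values were seen and was not tested. *Ndufs8*, a core iron-sulphur subunit (chr19:3908863-3912774, minus strand), had the smallest p of the complex. Its level was 58.9, 63.04, 62.7 and 69.1 CPM in 3W-PSCs, with 103, 137, 124 and 126 CPM in 2W-PSCs, so that the highest 3W library lay well below the lowest 2W library (-0.95 ± 0.15 SE, adjusted p = 0.00317). *Ndufb9*, an accessory subunit of the membrane arm, was at 174, 160.1, 209.9 and 188 CPM against 284, 369, 379 and 387 CPM (-0.96 ± 0.17 SE, adjusted p = 0.00515). *Ndufv3*, a small subunit bound to the NADH-oxidising module, was at 60.2, 52.1, 53.04 and 59.7 CPM against 83.2, 90.9, 109.7 and 112 CPM (-0.82 ± 0.16 SE, adjusted p = 0.00881). Neither overlapped.

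*Ndufb2*, another membrane arm subunit, followed, at 42.2, 39.9, 39.1 and 51.9 CPM in 3W-PSCs, with 61.8, 118, 80.2 and 104 CPM in 2W-PSCs (-1.07 ± 0.22 SE, adjusted p = 0.0102). *Ndufa2*, the most abundant nuclear member of complex I, was at 446, 411, 438 and 504 CPM against 654, 1521, 823 and 977 CPM (-1.15 ± 0.24 SE, adjusted p = 0.0134). The largest fall of the complex was that of *Ndufa5*, a subunit of the arm that faces the matrix, at 99.6, 84.4, 86.8 and 97.5 CPM against 149, 357, 164 and 203 CPM (-1.25 ± 0.26 SE, adjusted p = 0.0121). In *Ndufa2* and *Ndufa5* replicate 2 of 2W-PSCs was the highest library, and without it the log2 fold changes were -0.87 and -0.91. *Ndufb10* was also called lower (-0.65 ± 0.17 SE, adjusted p = 0.0325), and kept its call in 3 of the 8 fits without 1 library.

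Other nuclear genes of complex I were not called. *Ndufa1*, a subunit of the membrane arm, had the largest log2 fold change of the nuclear genes of complex I, 0.57 ± 0.60 (SE), with an adjusted p of 0.593. Its level was 99.8, 92.5, 119.8 and 94.7 CPM in 3W-PSCs, with 71.3, 5.40, 147 and 48.6 CPM in 2W-PSCs, a culture that spanned the range of 3W-PSCs on both sides. *Ndufv1*, the flavin subunit that takes the electrons from NADH, was at 129.5, 119, 159 and 137 CPM against 166, 285, 131 and 221 CPM with overlap (-0.56 ± 0.23 SE, adjusted p = 0.148). *Ndufb4* missed the threshold against 2W-PSCs (-0.69 ± 0.24 SE, adjusted p = 0.0940). *Ndufs5* had 333 counts over all libraries, too few for a statement. Of the 75-base windows in the last 500 bases of its transcripts 23.4% are shared with other genes.

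Complex II, succinate dehydrogenase, has 4 subunits, all nuclear, and works in the tricarboxylic acid cycle as well as in the chain. *Sdhb*, its iron-sulphur subunit and the most abundant, was at 155, 137, 111 and 150.3 CPM in 3W-PSCs, with 189.8, 353, 219 and 246 CPM in 2W-PSCs, with no overlap (-0.87 ± 0.21 SE, adjusted p = 0.0254). *Sdha*, the flavin subunit that oxidises succinate, was at 79.3, 81.2, 99.2 and 98.97 CPM against 75.9, 81.3, 56.7 and 84.01 CPM (0.27 ± 0.17 SE, adjusted p = 0.367). *Sdhc*, a membrane anchor, was at 76.7, 83.8, 86.4 and 80.4 CPM against 68.2, 19.9, 129.9 and 44.6 CPM (0.31 ± 0.41 SE, adjusted p = 0.681). *Sdhd*, the other anchor, had 327 counts in all libraries together and overlapped between cultures (1.01 ± 0.43 SE, adjusted p = 0.161). *Sdhb* was called in 3 of the 8 fits without 1 library.

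Complex III, which passes electrons from coenzyme Q to cytochrome c, held the largest fall of all members. *Uqcr10*, a small subunit near cytochrome c1 (chr11:4701973-4704342, minus strand), was at 157, 158, 186 and 159.5 CPM in 3W-PSCs, in 2W-PSCs at 284, 528, 398 and 405 CPM, and in mono-PSCs 234, 649, 477 and 423 CPM. All 4 libraries of 3W-PSCs lay below the 8 others (-1.29 ± 0.20 SE, adjusted p = 0.00243 against 2W-PSCs), and the call held in all 17 alternative fits. *Uqcr11*, another small subunit, was at 95.3, 112, 104 and 107 CPM against 132, 210.0, 215 and 209 CPM (-0.87 ± 0.18 SE, adjusted p = 0.0123). *Uqcrh*, the hinge protein, was at 303, 264, 256 and 292 CPM against 347, 614, 507 and 511 CPM (-0.83 ± 0.19 SE, adjusted p = 0.0184), and kept its call in 3 of the 8 fits without 1 library. Of the 5 small subunits 3 were called lower, and of the 4 core and catalytic subunits none, where 4.95% of all genes tested were called lower. Among the latter *Cyc1*, cytochrome c1, did not overlap (-0.55 ± 0.17 SE, adjusted p = 0.0658). This split into small and core subunits too was made after the values were seen and was not tested. *Uqcrfs1*, the Rieske iron-sulphur protein, had the largest log2 fold change of the nuclear members of the complex (0.40 ± 0.34 SE, adjusted p = 0.493). *Uqcrq*, the most abundant nuclear member of the complex, was at 474, 421, 514 and 487 CPM against 549, 567, 719.9 and 710.4 CPM, without overlap and without a call (-0.43 ± 0.16 SE, adjusted p = 0.120).

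Complex IV, cytochrome c oxidase, has subunits with isoforms of their own tissue. *Cox6a2*, the isoform of heart and skeletal muscle, was counted in PSCs beside the general isoform *Cox6a1* and fell. It was at 15.4, 12.7, 14.4 and 19.6 CPM in 3W-PSCs, in 2W-PSCs at 34.9, 35.9, 30 and 31.3 CPM, and in mono-PSCs 38.9, 72.5, 58.3 and 44.5 CPM, so that none of the 3 cultures overlapped (-1.09 ± 0.20 SE, adjusted p = 0.00620 against 2W-PSCs). Its exons overlap those of Itgad on the other strand by 70 bases. *Cox6a1* was at 383, 367, 467 and 442 CPM against 535, 562, 648 and 645 CPM, also without overlap but just short of the threshold (-0.53 ± 0.16 SE, adjusted p = 0.0552). *Cox7a2*, the general isoform of subunit 7a, fell from 527, 865, 697 and 707 CPM to 381, 348, 351 and 399 CPM (-0.92 ± 0.18 SE, adjusted p = 0.00837), while its muscle isoform *Cox7a1* stayed at or below 4.69 CPM in every library and was not tested here.

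*Cox4i1*, the general isoform of subunit 4 and the most abundant nuclear member of complex IV, was at 427, 456, 595 and 502 CPM in 3W-PSCs, with 570.5, 872, 903 and 910.2 CPM in 2W-PSCs. Replicate 3 of 3W-PSCs lay above replicate 1 of 2W-PSCs, and the difference was called (-0.72 ± 0.20 SE, adjusted p = 0.0396), in 3 of the 8 fits without 1 library. The isoforms *Cox4i2*, of the lung and of low oxygen, *Cox7b2*, *Cox8b* and *Cox8c* were at 0 counts in all libraries. *Cox8a* was at 255, 238, 200.3 and 238 CPM against 258, 88.9, 339.7 and 259 CPM (-0.03 ± 0.32 SE, adjusted p = 0.969), and *Cox6b1* at 147, 137, 141 and 137 CPM against 199.8, 82.8, 284 and 225 CPM (-0.49 ± 0.29 SE, adjusted p = 0.314). *Cox6b2*, the testis isoform, had the largest log2 fold change of the complex at a low level of 1.11 to 5.98 CPM in 2W-PSCs and 3W-PSCs (0.67 ± 0.49 SE, adjusted p = 0.422). *Cox7a2l* overlapped (-0.64 ± 0.26 SE, adjusted p = 0.139). *Ndufa4* was at 81.3, 71.6, 125 and 86.6 CPM against 84.3, 4.67, 189.9 and 94.6 CPM (-0.04 ± 0.65 SE, adjusted p = 0.976), and its paralogue *Ndufa4l2*, a gene induced by low oxygen, had 29 counts in all libraries together.

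In complex V 2 of 3 small membrane subunits and 1 of 4 genes of the peripheral stalk were called lower. So was 1 of 5 genes of the catalytic head with its central stalk, though the catalytic subunits were not called. Of the 3 genes of the proton-carrying ring 0 were called. Of all genes tested 4.95% were called lower. This split as well was made after the values were seen and was not tested. *Atp5k*, subunit e of the membrane part, was at 220.1, 198, 176 and 219 CPM in 3W-PSCs, with 295, 617, 373 and 454 CPM in 2W-PSCs (-1.10 ± 0.22 SE, adjusted p = 0.0109). *Atp5j2*, subunit f, was at 263, 226, 243 and 265 CPM against 358, 527, 539.7 and 490.3 CPM (-0.95 ± 0.17 SE, adjusted p = 0.00625). *Atp5o*, which fixes the peripheral stalk to the catalytic head, was at 302, 293, 265 and 321 CPM against 449, 551, 546 and 584 CPM (-0.85 ± 0.16 SE, adjusted p = 0.00620), with 42.7% of its windows shared with other genes. None of these 3 named genes overlapped. *Atp5e* of the central stalk was called as well (-0.67 ± 0.18 SE, adjusted p = 0.0397), and kept its call in 2 of the 8 fits without 1 library.

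The catalytic β subunit gene *Atp5b* and the α subunit gene *Atp5a1*, chosen after their values were seen, had log2 fold changes of 0.21 ± 0.30 and -0.08 ± 0.16 (SE), with adjusted p-values of 0.701 and 0.788. *Atp5a1* was at 419, 459.7, 519 and 421 CPM in 3W-PSCs, with 422, 529, 531 and 441 CPM in 2W-PSCs. The proton-carrying ring is made of the same peptide from 3 genes. Of these *Atp5g3*, the most abundant, was at 493, 499.7, 485 and 510.0 CPM against 598, 143, 809 and 501 CPM (-0.05 ± 0.38 SE, adjusted p = 0.953). *Atp5g1* was at 41.8, 38.3, 38.4 and 46.2 CPM against 45.5, 59.2, 63.5 and 58.5 CPM (-0.46 ± 0.17 SE, adjusted p = 0.106). *Atp5g2* had 154 counts in all, with 44.2% of its windows shared. *Atp5j* of the stalk had the largest log2 fold change of the complex (0.42 ± 0.54 SE, adjusted p = 0.674), again with replicate 2 of 2W-PSCs far below the rest.

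**Figure D4:**
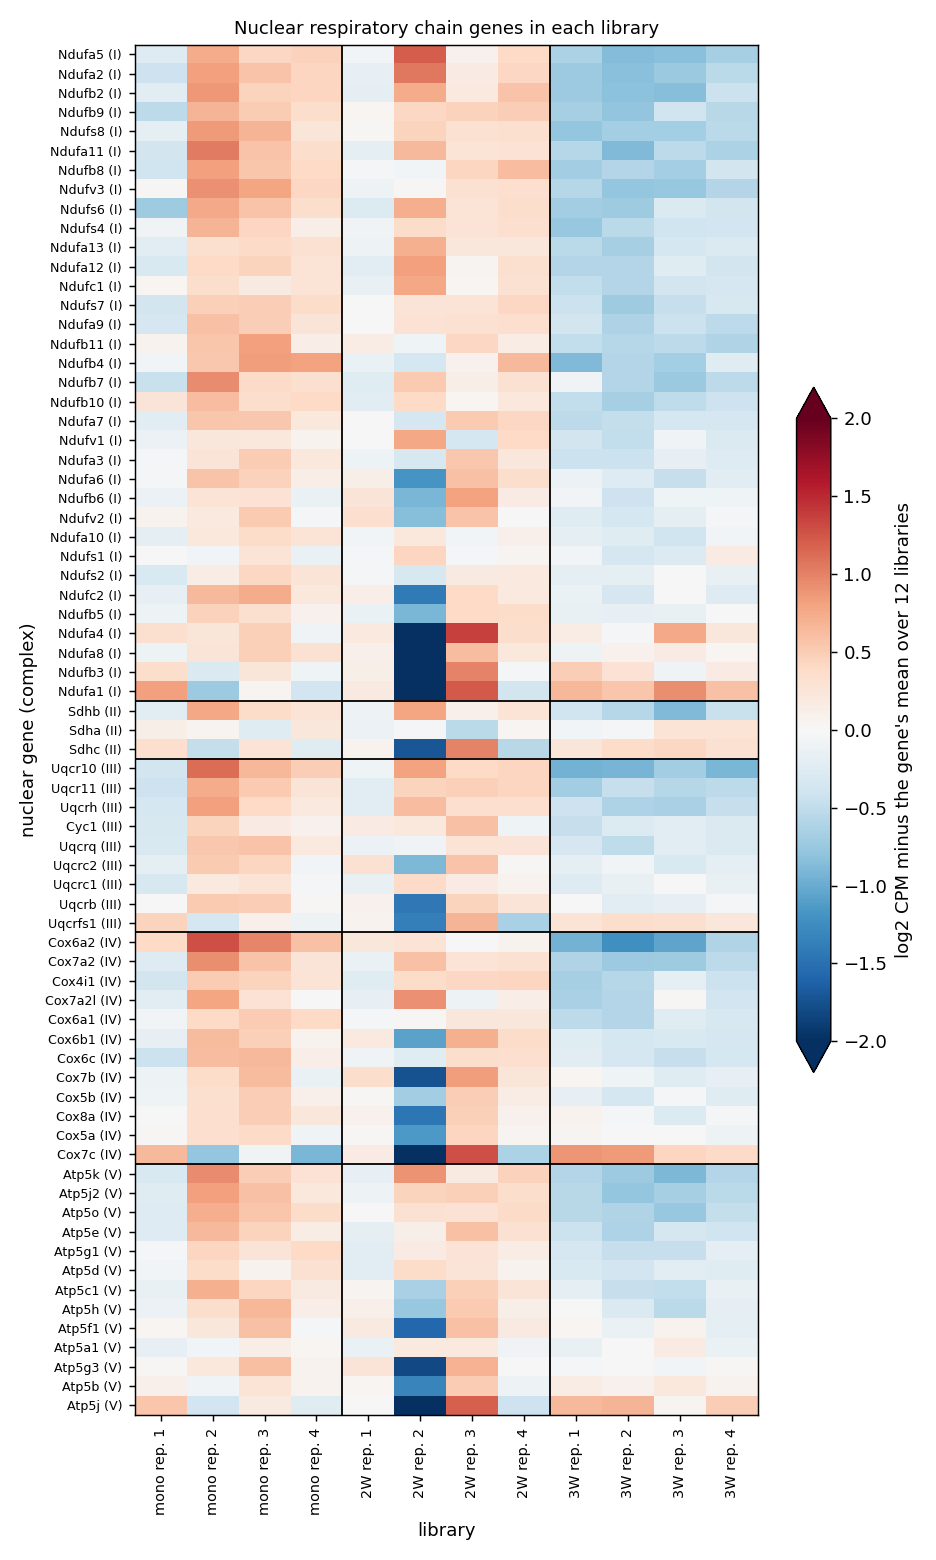
Log2 CPM of each nuclear member with a mean above 20 CPM, minus the gene's mean over the 12 libraries, by complex and, within a complex, by the difference of 3W-PSCs to 2W-PSCs. The 4 libraries of 3W-PSCs are low for the upper genes of each complex, and replicate 2 of 2W-PSCs is low for the genes at the bottom, such as *Ndufa4* and *Ndufa1*.

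Replicate 2 of 2W-PSCs stood apart in many of these genes. Among the 71 nuclear members with a mean above 20 CPM, 9 were more than 4 times lower there than the mean of the other 2W libraries, and 34 were above that mean. *Ndufa4* stood at 4.67 CPM against a mean of 123, *Ndufa1* at 5.40 against 89.1, and *Cox7c* at 17.7 against 118. The GC content of the last 200 bases of the transcript, where reads of this kit fall, had a median of 36% in these 9 and of 44.5% in the 71. Across the 71 genes, which share the libraries and their depth, GC of the transcript end and the log2 ratio of replicate 2 to the other 2W libraries had Pearson's r = 0.54 and Spearman's rho = 0.51. GC and the log2 difference between 3W-PSCs and 2W-PSCs had r = -0.48 and rho = -0.47, and against mono-PSCs, where replicate 2 has no part, r = -0.43 and rho = -0.46. These are descriptions across genes, which are not independent replicates. Without replicate 2 of 2W-PSCs 45 nuclear members were called lower, among them all 27, where 8.60% of all genes were called lower.

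**Figure D5:**
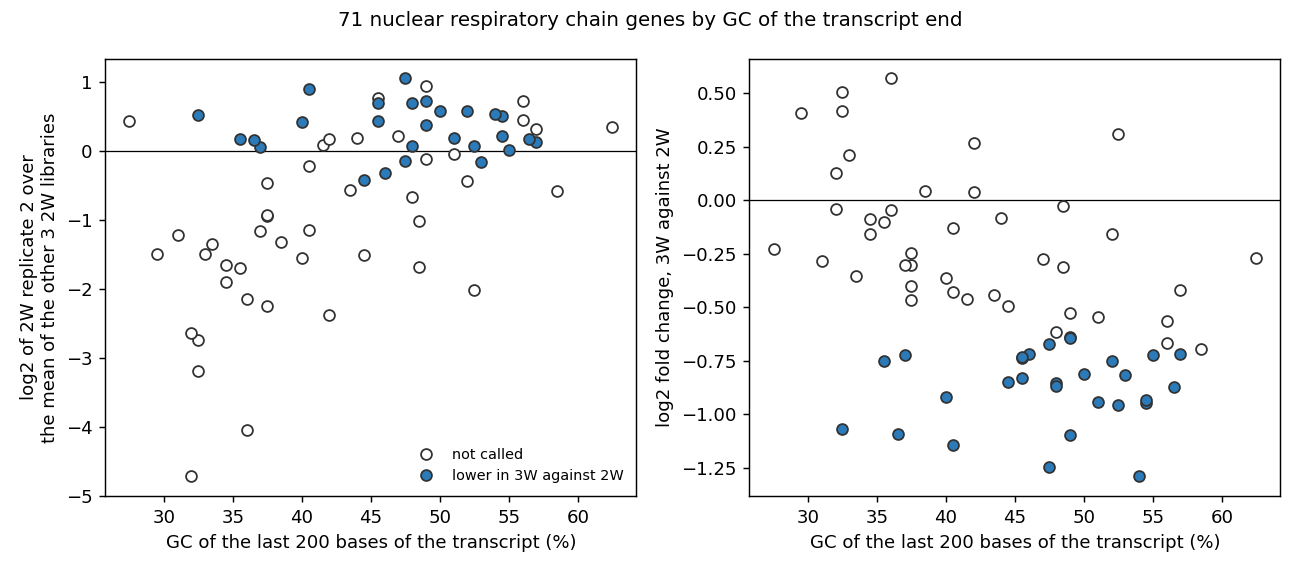
GC content of the last 200 bases of the transcript (%) against the log2 ratio of 2W replicate 2 to the mean of the other 2W libraries (left) and against the log2 difference between 3W-PSCs and 2W-PSCs (right), with 1 point for each of 71 nuclear members, blue where called lower. The 9 members lowest on the left, of which *Ndufa4* is the lowest, have a median GC of 36%.

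The members have short transcripts, with a median of 908 bases in the longest coding transcript, against 3113 for all genes tested. Of 795 other genes with a longest coding transcript of up to 1000 bases, 13.2% were called lower and 2.89% higher, with a median log2 fold change of -0.32. Of the members of up to 1000 bases 18 of 44 were called lower, and of the longer members 9 of 35. With an offset for transcript length in the fit, chosen after seeing the data, 20 nuclear members were called lower, and with length and GC of the transcript end 17, where 4.79% and 5.35% of all genes were. The part of transcript length in the difference was not tested beyond this.

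Without MØs the chain genes were not called. Between 2W-PSCs and mono-PSCs 86 members were tested and none was called in either direction, by edgeR or by DESeq2, where 0.991% of 11199 genes were called by edgeR, 0.839% higher and 0.152% lower. The median log2 fold change was -0.08 in nuclear and 0.02 in mitochondrial members. At an unadjusted p under 0.05 stood 1 member, *Cox6a2*, which was lower without overlap (-0.67 ± 0.22 SE, adjusted p = 0.323). It was the 1 member without overlap between these cultures, where 3.23% of all genes did not overlap with 2W-PSCs higher and 2.52% with 2W-PSCs lower. The lowest values of complexes I to V were those of *Ndufb4* (-0.44 ± 0.26 SE, adjusted p = 0.878), *Sdhd* (-0.85 ± 0.48 SE, adjusted p = 0.850), *Uqcrb* (-0.26 ± 0.32 SE, adjusted p = 0.999), *Cox7a1* (-0.94 ± 0.74 SE, adjusted p = 0.981) and *Atp5c1* (-0.21 ± 0.26 SE, adjusted p = 0.999). The highest nuclear values, in the same order, were those of *Ndufv1* (0.19 ± 0.24 SE, adjusted p = 0.999), *Sdhc* (0.03 ± 0.43 SE, adjusted p = 0.999), *Cyc1* (0.14 ± 0.22 SE, adjusted p = 0.999), *Cox6b2* (0.32 ± 0.65 SE, adjusted p = 0.999) and *Atp5sl* (0.14 ± 0.34 SE, adjusted p = 0.999), and *mt-Cytb* of complex III stood above *Cyc1* (0.31 ± 0.47 SE, adjusted p = 0.999). These comparisons had wide errors, and the summed nuclear level of 2W-PSCs was 0.935 times that of mono-PSCs.

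Against mono-PSCs, 3W-PSCs showed lower nuclear members in all complexes. Of 80 tested, 44 were called lower and 1 higher, with a median of -0.57, where 26.4% of all genes tested were called, 13.02% lower and 13.4% higher. No overlap with 3W-PSCs lower was seen for 33, against 12.1% of all genes tested. Past a log2 fold change of 1 in size, 13 lower calls and the higher call of *mt-Cytb* remained, where 4.09% of all genes were called lower and 7.85% higher under that rule. By complex the numbers called lower were 23 of 36 in complex I, 1 of 4 in complex II, 4 of 9 in complex III, 8 of 14 in complex IV and 8 of 17 in complex V. The 3W libraries are those of the comparison with 2W-PSCs, so that the 2 comparisons are not independent. Of other genes with transcripts of up to 1000 bases 22.9% were called lower and 7.48% higher here.

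The smallest p belonged to *Cox6a2* (-1.79 ± 0.22 SE, adjusted p = 9.50e-06). *Cox7a1* was at 1.74, 2.78, 3.06 and 4.69 CPM in mono-PSCs and at 0.133, 0.813, 1.53 and 0.130 CPM in 3W-PSCs, low levels throughout (-2.21 ± 0.66 SE). It was called in this fit and in 12 of 16 alternative fits. It passed the filter on low counts only through mono-PSCs, so that it could only be called lower. It is among the members counted above as called lower, also past a log2 fold change of 1 in size. *Cox6a2* and *Cox7a1* are isoforms known from muscle. *Uqcr10* had a log2 fold change of -1.43 ± 0.22 SE, adjusted p = 0.000138, and *Ndufv3*, at 90.4, 168, 155 and 119 CPM in mono-PSCs, one of -1.24 ± 0.18 SE, adjusted p = 6.82e-05. *Ndufb10* (-0.93 ± 0.14 SE, adjusted p = 0.000127), *Ndufa5* (-1.12 ± 0.18 SE, adjusted p = 0.000194) and *Ndufs8* (-1.11 ± 0.19 SE, adjusted p = 0.000325) led complex I with it. *Uqcr11* (-0.90 ± 0.20 SE, adjusted p = 0.00248), *Uqcrh* (-0.86 ± 0.20 SE, adjusted p = 0.00364) and *Uqcrq* (-0.62 ± 0.18 SE, adjusted p = 0.0160) were the other called members of complex III. In complex IV *Cox6a1* (-0.74 ± 0.16 SE, adjusted p = 0.00242), *Cox7a2* (-1.08 ± 0.20 SE, adjusted p = 0.000659) and *Cox4i1* (-0.70 ± 0.19 SE, adjusted p = 0.00983) were called, and *Cox6b1* and *Cox7a2l* as well, with log2 fold changes of -0.60 and -0.64.

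In complex V *Atp5k* (-1.12 ± 0.20 SE, adjusted p = 0.000606), *Atp5j2* (-1.03 ± 0.19 SE, adjusted p = 0.000659), *Atp5o* (-0.99 ± 0.18 SE, adjusted p = 0.000663) and *Atp5e* (-0.72 ± 0.18 SE, adjusted p = 0.00540) led. *Atp5g1* was called lower (-0.64 ± 0.16 SE, adjusted p = 0.00631) and *Atp5g3* was not called, at -0.26 ± 0.15 (SE) with an adjusted p of 0.228, and neither overlapped between the cultures. *Sdhb* was the called member of complex II (-0.90 ± 0.19 SE, adjusted p = 0.00162). The 1 nuclear member called higher was *Cox7c*, a small subunit of complex IV, at 156, 152, 113 and 109.7 CPM in 3W-PSCs, with 132, 48.96, 79.9 and 44.7 CPM in mono-PSCs, which overlap (0.79 ± 0.27 SE, adjusted p = 0.0377). It kept its call in 3 of the 8 fits without 1 library, and 24.4% of its windows are shared with other genes.

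Genes that carry out other steps of the pathway were counted in the same fits, from lists chosen with earlier results of these data known. Against 2W-PSCs edgeR called 0 of 16 assembly factors of complex I, of which 4 were lower at an unadjusted p under 0.05 and 2 by DESeq2. It called 0 of 2 of complex II, with 1 lower at an unadjusted p under 0.05 and 0 by DESeq2. *Coa3*, *Cox14* and *Cox20* are known for the making of the mitochondrial subunits of complex IV. Where 4.95% of all genes tested were called lower, 4 of 20 factors of that complex were, *Coa3* (-0.83 ± 0.17 SE, adjusted p = 0.0101), *Cox14* (-0.71 ± 0.16 SE, adjusted p = 0.0162), *Cox20* (-0.70 ± 0.19 SE, adjusted p = 0.0406) and *Cmc2* (-0.91 ± 0.26 SE, adjusted p = 0.0475). *Uqcc2*, which helps to make cytochrome b, was the 1 of 5 factors of complex III called lower (-0.76 ± 0.20 SE, adjusted p = 0.0315), and *Tmem242* the 1 of 4 of complex V (-0.79 ± 0.17 SE, adjusted p = 0.0156). Of 19 electron carriers and genes of coenzyme Q synthesis *Etfb*, a subunit of the electron transfer flavoprotein, was lower (-1.41 ± 0.19 SE, adjusted p = 0.000973). *Cycs*, cytochrome c, was at 20.7, 21.1, 17.7 and 22.3 CPM against 16.5, 35.6, 22.9 and 19.6 CPM (-0.20 ± 0.25 SE, adjusted p = 0.653).

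The machinery that keeps and transcribes mitochondrial DNA had 0 calls by edgeR and by DESeq2 among 21 genes tested against 2W-PSCs, with 2 higher at an unadjusted p under 0.05. Of all genes tested edgeR called 10.7% in either direction in that comparison, and the count of 0 was not tested against that share. *Tfam*, which packs mitochondrial DNA and starts its transcription, was at 97.5, 88.2, 92.9 and 85.3 CPM in 3W-PSCs, with 80.1, 54.03, 104 and 73.1 CPM in 2W-PSCs (0.22 ± 0.19 SE, adjusted p = 0.514). Against mono-PSCs 1 of 21 was called higher and 1 lower, where 13.4% of all genes tested were called higher and 13.02% lower. *Pnpt1*, a mitochondrial RNA-degrading enzyme, was higher (1.37 ± 0.28 SE, adjusted p = 0.00169) and *Fastkd2*, an RNA-binding protein of mitochondrial RNA granules, lower (-0.71 ± 0.24 SE, adjusted p = 0.0382).

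Of 11 tested nuclear regulators, 2 were called higher against 2W-PSCs and none lower, where 5.73% of all genes tested were called higher. *Hif1a*, the oxygen-regulated factor, was at 173, 190.0, 176 and 137 CPM against 106, 123, 86.04 and 93.8 CPM (0.72 ± 0.17 SE, adjusted p = 0.0223). *Myc* was at 27.6, 23.8, 47.7 and 12.7 CPM against 7.14, 9.33, 14.8 and 3.99 CPM (1.67 ± 0.44 SE, adjusted p = 0.0360). Against mono-PSCs, where 13.4% of all genes tested were called higher, 5 were, *Pprc1* (1.22 ± 0.25 SE, adjusted p = 0.00158), *Myc* (2.34 ± 0.52 SE, adjusted p = 0.00288), *Hif1a* (0.68 ± 0.15 SE, adjusted p = 0.00348), *Nfe2l2* (0.53 ± 0.14 SE, adjusted p = 0.0106) and *Esrra* (1.12 ± 0.38 SE, adjusted p = 0.0364). Of these *Pprc1*, a coactivator, and *Esrra*, a nuclear receptor, are known to drive nuclear chain genes. Of other factors known for this, *Nrf1*, *Gabpa*, *Gabpb1* and *Yy1* were not called in either comparison. Against 2W-PSCs the values were those of *Nrf1* (0.06 ± 0.19 SE, adjusted p = 0.873), *Gabpa* (0.39 ± 0.19 SE, adjusted p = 0.216), *Gabpb1* (0.07 ± 0.21 SE, adjusted p = 0.866) and *Yy1* (-0.21 ± 0.17 SE, adjusted p = 0.466). The coactivator *Ppargc1a* had a log2 fold change of 0.06 ± 0.30 SE, adjusted p = 0.929, and the scarce *Ppargc1b* of 0.95 ± 0.52 SE, adjusted p = 0.279. *Ppara* and *Esrrg* had too few counts for a test.

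Among genes whose products replace or inhibit chain subunits, *AA467197* rose. It encodes a paralogue of *Ndufa4* that is induced in inflammation, and was at 29.5, 28.9, 17.6 and 21.9 CPM in 3W-PSCs, in 2W-PSCs at 3.92, 1.23, 5.56 and 2.24 CPM, and in mono-PSCs 2.78, 3.17, 4.14 and 3.49 CPM (2.87 ± 0.39 SE, adjusted p = 0.00110 against 2W-PSCs and 2.84 ± 0.27 SE, adjusted p = 4.84e-07 against mono-PSCs). *Irg1*, the enzyme that makes itaconate, an inhibitor of complex II, was at 4.38, 10.8, 2.16 and 2.33 CPM in 3W-PSCs. It was at 0 in all libraries of 2W-PSCs and at up to 0.198 CPM in mono-PSCs. *Irg1* passed the filter on low counts only through 3W-PSCs. It was called higher in both comparisons, the only direction in which it could be called. It is known as a macrophage gene, and the summed macrophage markers were also highest in 3W-PSCs, at 30.5 to 67.7 CPM. The part of MØ RNA in it was not tested. *Nos2*, whose product inhibits complex IV, reached 10 counts in 1 library of 3W-PSCs and was not tested. *Atpif1*, the inhibitor of ATP hydrolysis by complex V, fell with the subunits, from 478, 466, 612 and 559.8 CPM to 345, 311, 294 and 323 CPM (-0.74 ± 0.16 SE, adjusted p = 0.0136).

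*Higd2a* and *Higd1a*, assembly and hypoxia-related partners of complex IV, were not called against 2W-PSCs (-0.34 ± 0.16 SE, adjusted p = 0.196, and -0.00 ± 0.22 SE, adjusted p = 0.997), but lower against mono-PSCs (-0.67 ± 0.17 SE, adjusted p = 0.00831, and -0.74 ± 0.24 SE, adjusted p = 0.0294). *Dnajc15*, a repressor of complex I, was lower against mono-PSCs (-0.75 ± 0.21 SE, adjusted p = 0.0121). *Ucp2* (-1.09 ± 0.53 SE, adjusted p = 0.222) and *Trap1* (0.07 ± 0.17 SE, adjusted p = 0.845) were not called.

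In the tricarboxylic acid cycle, 1 of 19 genes was called in each direction against 2W-PSCs. Of all genes tested 5.73% were called higher and 4.95% lower in that comparison. *Pdk1*, the kinase that shuts pyruvate dehydrogenase, was higher (1.13 ± 0.29 SE, adjusted p = 0.0318), and *Idh2*, the mitochondrial isocitrate dehydrogenase that makes NADPH, lower (-0.85 ± 0.20 SE, adjusted p = 0.0203). Of 13 carriers and channels of the mitochondrial membranes edgeR and DESeq2 called 0 against 2W-PSCs, with 1 lower at an unadjusted p under 0.05. Of 14 tested against mono-PSCs 1 was called higher and 5 lower, where 13.4% of all genes tested were called higher and 13.02% lower. There *Slc25a4*, the ATP/ADP carrier known from heart and muscle, fell (-0.64 ± 0.15 SE, adjusted p = 0.00443) and its isoform *Slc25a5* rose (1.05 ± 0.22 SE, adjusted p = 0.00206). *Mpc2*, a subunit of the pyruvate carrier, was lower (-0.93 ± 0.19 SE, adjusted p = 0.00131).

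Against mono-PSCs 1 of 16 assembly factors of complex I was called higher and 2 lower, 0 of 2 of complex II, 3 higher and 7 lower of 20 of complex IV, and *Uqcc2* and *Tmem242* lower again. Of 19 carriers and coenzyme Q genes 2 were higher and 3 lower there, and of 19 genes of the tricarboxylic acid cycle 1 and 3. Of all genes tested 13.4% were called higher and 13.02% lower in that comparison. For complex II 1 factor was lower at an unadjusted p under 0.05 and 1 by DESeq2. Between 2W-PSCs and mono-PSCs no gene of these lists was called by edgeR or DESeq2.

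Promoters were compared because many nuclear members were called lower. RefSeq promoters on GRCm38.p6 (250 bases before to 50 after the start) were at hand for 69 members. The NRF1 motif, GCGC followed by any base and TGCGC on either strand, was in 24.6% of them and in 7.17% of 17492 genes. The motif of ETS factors such as GABP, CCGGAAG, was in 23.2% and 12.9%, and that of YY1, GCCATNTTG, in 17.4% and 3.32%. The NRF1 motif was in 5 of 23 promoters of members called lower and in 12 of 43 of members not called, the ETS motif in 6 and 10, and the YY1 motif in 6 and 6. For YY1 this was 26.1% and 14.0%, and for NRF1 21.7% and 27.9%, with no test of the difference. A match in these letters is a description and no site of binding. For each motif up to 3 members called lower with the smallest p and a match in the 250 bases before the start are shown, each as 30 bases on the strand of the gene with the motif in capitals.
Atp5k, NRF1 (chr5:108434430-108434459, minus strand): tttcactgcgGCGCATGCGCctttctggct
Ndufa11, NRF1 (chr17:56717692-56717721, plus strand): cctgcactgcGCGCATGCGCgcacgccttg
Ndufa5, NRF1 (chr6:24527697-24527726, minus strand): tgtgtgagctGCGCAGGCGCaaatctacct
Uqcr11, ETS (chr10:80406869-80406898, minus strand): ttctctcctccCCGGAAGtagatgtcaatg
Uqcrh, ETS (chr4:116075071-116075100, minus strand): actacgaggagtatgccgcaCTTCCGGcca
Atp5e, ETS (chr2:174464185-174464214, minus strand): tacggccacagCTTCCGGtagccgctcggc
Ndufs8, YY1 (chr19:3912921-3912950, minus strand): ctctctgataCAACATGGCagctccctaca
Ndufb11, YY1 (chrX:20617812-20617841, minus strand): gtcaccaacaCAAAATGGCgacgagaagag
*Atp5k* and *Ndufa11* hold the same 10 letters, in which the motif reads alike on both strands, while *Ndufa5*, *Uqcrh*, *Atp5e*, *Ndufs8* and *Ndufb11* hold their motif on the strand opposite to the gene. *Ndufa11*, at 97.8, 79.2, 102 and 93.3 CPM in 3W-PSCs, with 127, 228, 175 and 178 CPM in 2W-PSCs (-0.93 ± 0.19 SE, adjusted p = 0.0116), and *Ndufb11* are named here as called members that hold a motif.

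Some named members cannot be separated fully from other genes. For nuclear members, windows were taken from the last 500 bases of each transcript only. Of the 86 nuclear members 33 share such 75-base windows with another annotated transcript and 11 share at least 20% of them. Exons of 29 overlap another gene, and the strand setting of the counting is not given in the sources used here. *Atp5l*, with 150 counts, *Ndufs5*, *Sdhd* and *Atp5g2* are subunits that every cell uses, yet were nearly uncounted. Of their windows 29.4%, 23.4%, 0% and 44.2% are shared with other genes, in that order. Why their counts are low was not tested, and their low levels are not read as low expression.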

How the data were processed

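RNA of sorted PSCs was measured in 12 libraries, 4 per culture. The authors made QuantSeq 3′ FWD libraries, checked single-end reads with FastQC, aligned them with STAR to GRCm38 with counting on Ensembl genes by featureCounts. The deposited values are whole-number counts that were not scaled, while the methods name them normalised, and 0 columns were left out. Molecular identifiers and the strand setting are not given in the sources used here, so that PCR copies count as reads and statements on depth cover counting error only. A 3′ kit counts transcript ends.

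Counts were compared in pairs of cultures, 8 libraries a fit, in edgeR 4.0.16 under R 4.3.3 (TMM, filterByExpr, glmQLFit and glmQLFTest), adjusted by Benjamini-Hochberg over all genes tested and called at an adjusted p under 0.05. Levels are CPM with TMM over 12 libraries. Fold changes use edgeR's prior count of 0.125. The fits were tested on simulated data. Positions, transcripts and shared windows come from GENCODE M21 (GRCm38), promoters from RefSeq. Shared windows cover the last 500 bases of nuclear transcripts and the whole of mitochondrial ones. Members, lists, tests and alternatives were chosen with earlier results of these data known.

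Named members were the mitochondrial and Sdh genes, subunits with isoforms, up to 4 called members per complex, direction and comparison with the smallest p, those with the largest and smallest fold change, and the most abundant of each complex. From the other lists they were the regulators, the replacing or inhibiting genes, *Cycs*, *Tfam*, up to 3 called genes per direction with the smallest p, and genes of counts of 5 or fewer. Other members named were chosen after their values were seen (*Atp5a1*, *Atp5b*) or for low counts, shared windows or a motif. Alternatives were other size factors, other filters, library sizes without mitochondrial genes and *Gm26924*, 1 fit of all libraries, a block for the replicate number, DESeq2 1.42.0, a fold limit and each library left out, and, chosen after seeing the data, offsets for transcript length and GC.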

Additional observations from a re-analysis of the deposited data

Results flagged for a closer look

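In 171 groups of 4 libraries of summed levels and named members, 1 library lay far from the other 3 by Dixon's test in 7 cases, and chance alone gives about 1 in 20. Replicate 1 of 2W-PSCs accounted for 5 of them. Its summed nuclear complex I level was 5110.2 CPM, where the others lay between 6612 and 6673, and its ratio of mitochondrial to nuclear level was 1.25 against 0.573 to 0.668. In the same library *Cox4i1* was at 570.5 CPM (others 872 to 910.2), *Uqcr11* at 132 CPM (others 209 to 215) and *mt-Nd4* at 4329 CPM (others 2721 to 2802). In 3W-PSCs replicate 3 had the highest *Uqcr10*, 186 CPM against 157 to 159.5 in the others, still below every library of the other cultures. In 2W-PSCs replicate 3 had the highest *Atp5g2*, 6.83 CPM against 0 to 1.12, a gene near the limit of counting.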

How the results depend on the processing

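Among 866 alternative values of the 51 called differences of named members, none changed direction, 765 stayed past the threshold and 101 did not. The 2 members called higher in 3W-PSCs against 2W-PSCs became 0 with a log2 fold limit of 1, 1 with all 12 libraries in one fit, 1 with the replicate block, 4 with DESeq2, 1 with the offset for transcript length and 0 to 4 with 1 library left out (0 without 2W replicate 4, 4 without 2W replicate 2). The 27 called lower became 6 with the fold limit, 17 with offsets for length and GC, and 11 (without 3W replicate 2) to 45 (without 2W replicate 2) with 1 library left out, of which without 3W replicate 1 it was 14 and without 2W replicate 4 it was 16. Against mono-PSCs the 5 called higher became 1 with the fold limit, 8 without a filter, 1 with all 12 libraries in one fit, and 1 (without mono replicate 3) to 9 (without mono replicate 1). The 44 called lower became 13 with the fold limit and 35 to 55 with 1 library left out. The cause of these changes was not tested, apart from the fold limit, which removes calls by construction. Between 2W-PSCs and mono-PSCs all settings gave 0. The log2 ratio of 3W-PSCs to 2W-PSCs with 1 library left out was -0.60 to -0.46 for the nuclear and 0.71 to 1.01 for the mitochondrial sum, that of 3W-PSCs to mono-PSCs -0.75 to -0.53 and 0.65 to 1.06, and that of 2W-PSCs to mono-PSCs -0.22 to -0.00 and -0.19 to 0.26. Calls that held in all alternatives were 10 of 29 against 2W-PSCs and 33 of 49 against mono-PSCs.

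The labels number the replicates 1 to 4 in each culture without saying that a number marks a shared isolation or day. Deviations from the group means correlated at -0.05 to 0.15 between same-numbered libraries of 3W-PSCs and 2W-PSCs (2 of 4 best with their own number). The values were 0.10 to 0.34 for 2W-PSCs and mono-PSCs (3 of 4) and 0.00 to 0.11 for 3W-PSCs and mono-PSCs (2 of 4). Between libraries of different numbers they were -0.17 to 0.11, -0.26 to 0.22 and -0.12 to 0.07, in the same order. The main fits are unpaired, and whether a number marks a shared isolation or day was not tested. With the replicate block 19 nuclear members were called lower against 2W-PSCs and 43 against mono-PSCs.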
